A study of Mus musculus with 16 samples.

Results

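The regions described here are narrow stretches of the mouse genome that carried H3K4me3 in every library of blood stem cells, had no H3K27me3 on them and mostly had no H3K36me3 close by. The peaks of the 4 H3K4me3 lists were merged where they shared or abutted a base, which gave 20660 regions, and 14489 of these were held in all 4 lists. A region was kept when its merged width was below 4000 bp, when no H3K27me3 island of 5 libraries touched it, and when an H3K36me3 peak lay within 5 kb in fewer than 3 of 5 H3K36me3 libraries. The members were thus chosen by the presence and merged width of H3K4me3 and by the positions of H3K27me3 and H3K36me3 in these libraries. This left 6213 regions, which is 42.9% of those held in all 4 lists and 30.1% of all merged regions. They are called narrow regions without H3K36me3 nearby, and they were set against the 4851 narrow regions next to H3K36me3, which meet the same rule except that 3 or more of the 5 H3K36me3 libraries had a peak within 5 kb. The other shared regions were 711 broad regions of 4000 bp or more free of H3K27me3 and 2714 regions touched by H3K27me3.

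The study compared haematopoietic stem cells of old mice, aged 24 months, with those of young mice, aged 4 months, by chromatin immunoprecipitation and sequencing (ChIP-seq), which maps where a modified histone sits on DNA. All mice were C57BL/6, a common laboratory strain with no engineered allele named in the labels, and all cells were primary bone marrow cells of the SP-KSL-CD150+ sort, a dye-exclusion and surface marker gate that enriches stem cells. There were 2 old and 2 young H3K4me3 libraries (replicates 7 and 8 of each age), 3 old and 3 young H3K27me3 libraries (replicates 1 to 3) and 3 old and 3 young H3K36me3 libraries (replicates 4 to 6). By their labels the samples are technical replicates, each of a biological replicate with a number, and the animals behind them are not given, so every p-value measures the spread between these libraries alone.

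H3K4me3 is placed around the start sites of genes that are transcribed or held ready for transcription. H3K36me3 is laid down behind elongating RNA polymerase II and fills the bodies of transcribed genes, so an active promoter normally has it downstream. H3K27me3 is the mark of Polycomb repression, and its overlap with H3K4me3 in stem cells defines the regions called bivalent. In a mixed population, a mark on few of the cells and a weaker mark on all of them cannot be told apart from a peak list.

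Whether these regions are promoters was not examined: the files use the mm9 build, and no gene names or sequences of that build are used here. The H3K4me3 lists held 16258 to 19923 peaks over 26.9 to 32.5 Mb, and the read depth behind them is unknown. One library of each other mark stood apart and was kept out of the rule. Young H3K36me3 replicate 4 held 6399 peaks over 5.90 Mb, against 39362 to 84437 peaks in the other 5 lists of that mark. Young H3K27me3 replicate 1 held 46985 islands, within the 17752 to 47197 of the other 5 lists, but they lay a median of 203 kb from these regions, against 55.3 to 105 kb in the other 5 libraries. Its values are given beside those of the other libraries where a distance to H3K27me3 is reported.

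The merged width of the 6213 regions ran between 513 and 3999 bp with a median of 1972 bp, and the 25th and 75th percentiles were 1498 and 2517 bp. A larger part of them was short: 25.1% were below 1500 bp, against 10.1% of the narrow regions next to H3K36me3, whose median width was 2131 bp. At the upper end, 11.7% were 3000 bp or wider, close to the 13.1% of the regions next to H3K36me3. The 3 widest were on chromosome 1 at 51345374 to 51349372 (3999 bp), chromosome 16 at 8735707 to 8739702 (3996 bp) and chromosome 11 at 74534897 to 74538888 (3992 bp), all mm9 with positions counted from 1. Just past the width limit, and otherwise meeting the rule, were regions on chromosome 14 (51707631 to 51711634, 4004 bp), chromosome 17 (32248993 to 32252997, 4005 bp) and X (17738467 to 17742472, 4006 bp). In all, 322 regions of 4000 bp or more met the rest of the rule.

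The absence of H3K36me3 was a matter of distance and of library. Of the 6213 regions, 4344 (69.9%) had no H3K36me3 peak within 5 kb in any of the 5 libraries, 1082 (17.4%) had one in a single library and 787 (12.7%) in 2 libraries. These shares were set by the rule and are a description. Young replicate 6 alone supplied the peak for 722 of the 1082 regions with a peak in a single library, and it had a peak within 5 kb of 22.2% of all 6213 regions. The share was 2.06%, 4.73% and 7.87% in old replicates 4, 5 and 6, and 5.91% in young replicate 5. Young replicate 6 also had the largest covered length of its mark, 138 Mb, against 41.6 to 100.4 Mb in the 4 other libraries of the rule.

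Farther out, H3K36me3 was common. Within 20 kb, 45.2% to 68.2% of the regions had a peak, and within 50 kb 72.7% to 85.1%, depending on which of the 5 libraries of the rule is read. The median distance to the nearest peak was 10.5 to 23.0 kb, against 1.26 to 3.60 kb for the narrow regions next to H3K36me3. Young replicate 4, with its short list, had a peak within 20 kb of 7.11% and within 50 kb of 17.7% of the regions, and its median distance was 275 kb. At the far end, 375 regions (6.04%) lay more than 100 kb from any H3K36me3 peak of the 5 libraries. The 5 farthest were on chromosome 15 at 21038767 to 21039733 (3952 kb away), on X at 85360304 to 85362022 (2216 kb), on chromosome 3 at 46251121 to 46252514 (1884 kb), on X at 78315381 to 78317942 (1601 kb) and on chromosome 3 at 91883784 to 91886446 (1441 kb). The first 2 scored below 3100 in all 4 H3K4me3 lists, whereas the other 3 reached 3100 in all 4.

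**Figure D1:**
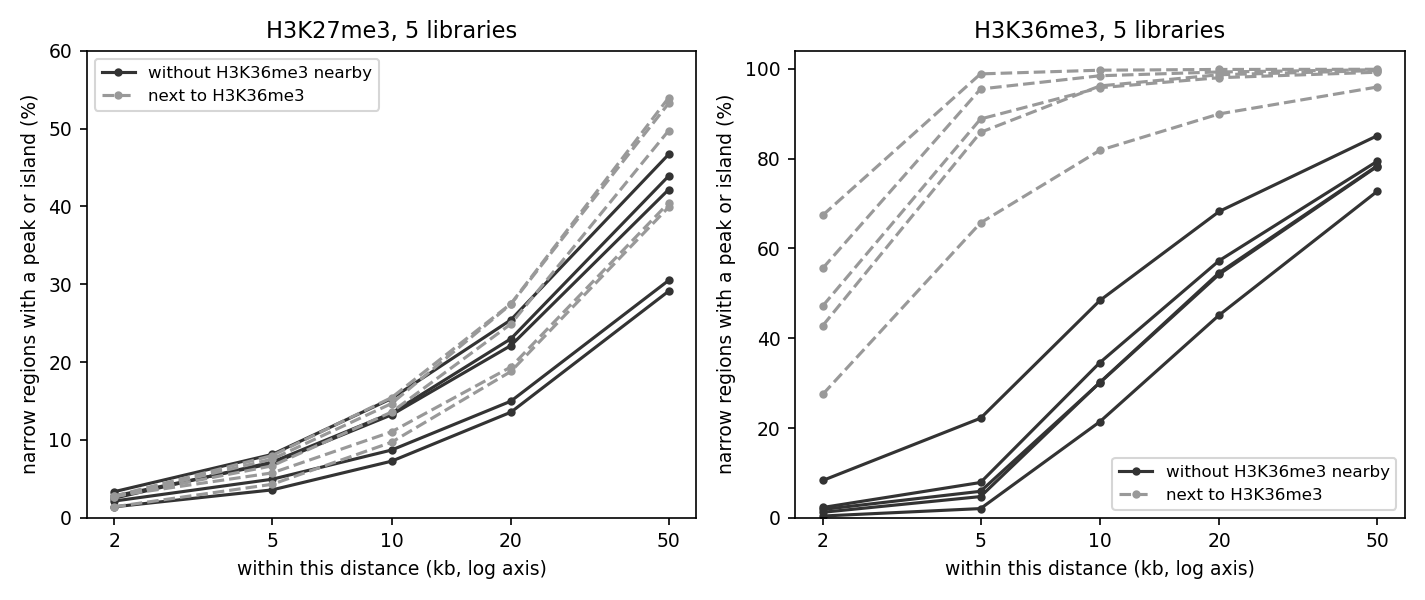
Share of narrow regions with an H3K27me3 island (left) or an H3K36me3 peak (right) within a given distance in kb on a log axis, one line for each of the 5 libraries of the rule, for narrow regions without H3K36me3 nearby (dark) and next to H3K36me3 (dashed grey). At 50 kb, 72.7% to 85.1% of the regions without H3K36me3 nearby had an H3K36me3 peak, and 29.1% to 46.7% had an H3K27me3 island.

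With all peaks counted, H3K4me3 covered fewer bases at these regions than at narrow regions with H3K36me3 close by, and with a stricter score threshold it covered more. Both sets obey the same width limit. The covered length of a region is the number of its bases under H3K4me3 peaks of a given library. Its median over the 6213 regions was 1534 and 1748 bp in old replicates 7 and 8, and 1741 and 1592 bp in young replicates 7 and 8. Over the 4851 regions next to H3K36me3 it was 1669 and 1914 bp in old replicates 7 and 8, and 1907 and 1743 bp in young replicates 7 and 8. In each of the 4 libraries the regions without H3K36me3 nearby had the lower median. The difference was -154.5 ± 14.8 bp (SD, n = 4 libraries; exact two-sided sign-flip permutation test, p = 0.125, the smallest p that 4 libraries allow). It was -144 bp without chromosomes X and Y.

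**Figure D2:**
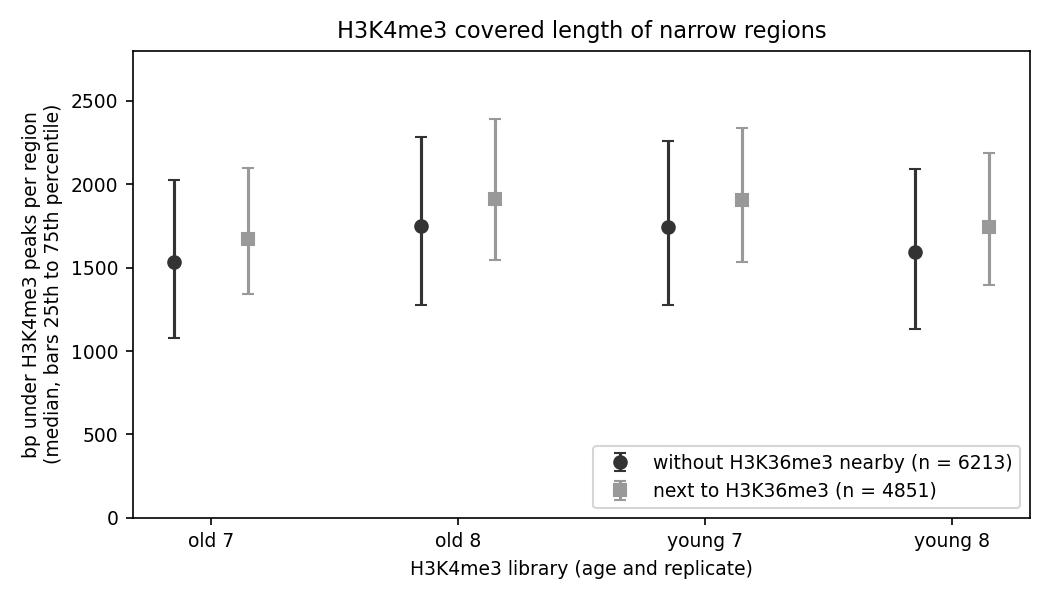
Median bp under H3K4me3 peaks per region in each H3K4me3 library, with bars for the 25th to 75th percentile over regions, for narrow regions without H3K36me3 nearby (dark circles) and next to H3K36me3 (grey squares). The dark median lies below the grey one in all 4 libraries.

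High scores were rarer at these regions than at those next to H3K36me3, and about as common as over all shared regions. Scores are the values deposited with each peak, and 47.7% to 59.7% of the peaks in the 4 H3K4me3 lists stood at 3100 or above, where the values pile up. A region takes the score of its highest peak. Over the 14489 regions held in all 4 lists, 65.4% to 66.7% stood at 3100 or above. It was 28.8% to 33.0% of the regions touched by H3K27me3 and 99.0% to 99.3% of the broad regions free of it. The share of the 6213 regions at 3100 or above was 62.8% and 63.2% in old replicates 7 and 8, and 63.2% and 63.8% in young replicates 7 and 8, against 83.5% to 84.7% at the regions next to H3K36me3. The difference was -20.7 ± 0.139 percentage points (SD, n = 4 libraries; exact two-sided sign-flip permutation test, p = 0.125, the smallest possible). The median score percentile within a list cannot show this: both medians lie in the pile at 3100, and their difference was 0 in each library.

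Among regions at 3100 or above in all 4 libraries, those without H3K36me3 nearby were the longer ones. They were 3544 of the 6213 regions (57.0%) and 3848 of the 4851 regions next to H3K36me3 (79.3%). The median covered length without H3K36me3 nearby was 1896.5 and 2148 bp in old replicates 7 and 8 and 2134.5 and 1982 bp in young replicates 7 and 8. Next to H3K36me3 it was 1792.5 and 2053 bp in the old libraries and 2032.5 and 1877.5 bp in the young ones. Among regions below 3100 in all 4 libraries, 1911 regions without H3K36me3 nearby (30.8%) and 578 next to it (11.9%), the order was the other way. Without H3K36me3 nearby the medians were 906 and 1120 bp in the old libraries and 1104 and 971 bp in the young ones, against 1005.5 and 1298 bp in the old and 1251 and 1066 bp in the young libraries next to it. When only peaks at or above the median score of their list were used and the regions chosen again, the difference in median length was 99.25 bp (SD 6.65, n = 4 libraries; exact two-sided sign-flip permutation test, p = 0.125, the smallest possible), a reversed sign.

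Length and score were both lower farther from H3K36me3, which is given as a description because the rule used these distances. The 1869 regions with a peak of any of the 5 libraries within 5 kb had a median covered length of 1667 to 1912 bp over the 4 H3K4me3 libraries, close to the 1669 to 1914 bp of the narrow regions next to H3K36me3. The medians were 1618 to 1826 bp at 5 to 10 kb (1564 regions) and 1574.5 to 1799 bp at 10 to 20 kb (1118 regions). Beyond that they were lower: 1311.5 to 1549 bp at 20 to 50 kb (900 regions), 1093 to 1301 bp at 50 to 100 kb (387 regions) and 953 to 1195 bp past 100 kb (375 regions). The order of these bins was the same in old and young libraries.

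The score went the same way. The share of regions at 3100 or above was 77.3% to 79.2% within 5 kb, 70.8% to 71.5% at 5 to 10 kb, 64.5% to 64.8% at 10 to 20 kb, 47.1% to 48.0% at 20 to 50 kb, 31.3% to 31.8% at 50 to 100 kb and 21.6% to 23.5% past 100 kb. On autosomes alone the share past 100 kb was 19.2% to 20.8% and the median length 923.5 to 1159 bp. Among the regions at 3100 or above in all 4 libraries, medians were as long far from H3K36me3 as close to it, at 1869 to 2136.5 bp within 5 kb and 1923 to 2115.5 bp past 100 kb, where 64 regions were left. The distance to the next shared H3K4me3 region also grew, with a median of 31.4 kb in the nearest bin and 124 kb in the farthest, against 19.3 kb for the regions next to H3K36me3. The part of this spacing in the distances to H3K36me3 was not tested.

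**Figure D3:**
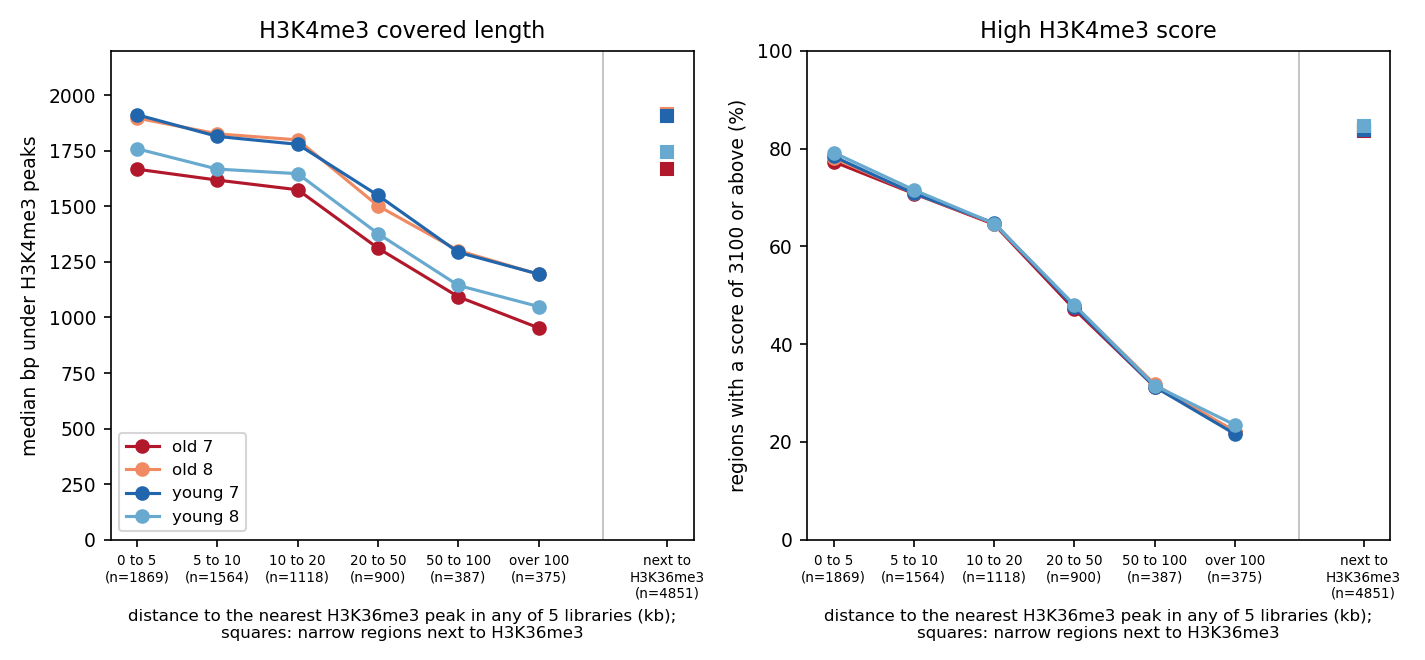
Median H3K4me3 covered length in bp (left) and share of regions with a score of 3100 or above (right) by distance in kb to the nearest H3K36me3 peak of 5 libraries, one line per H3K4me3 library; squares show narrow regions next to H3K36me3. Both measures are lowest past 100 kb, at 953 to 1195 bp and 21.6% to 23.5%.

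On either side of the rule's limit on H3K36me3 the lengths were close. The 787 regions with H3K36me3 within 5 kb in 2 libraries had medians of 1630 to 1881 bp, and the regions just outside, with it in 3 libraries, had 1656.5 to 1880 bp. The 4344 regions with none had 1456 to 1667 bp. Their share at a score of 3100 or above was 56.5% to 57.2%, against 77.3% to 80.1% with 2 libraries.

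Most of the H3K4me3 regions on X fell in this set. Of 469 H3K4me3 regions on X that all 4 lists held, 378 (80.6%) belonged to the set and 38 (8.10%) were narrow and next to H3K36me3. On the 19 autosomes 5832 of 14016 shared regions (41.6%) belonged to it, with the lowest share on chromosome 7 (33.5%) and the highest on chromosome 1 (46.9%). On Y, 3 of 4 shared regions did. The chromosome was looked at after the values were seen, and the contrast is a description.

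**Figure D4:**
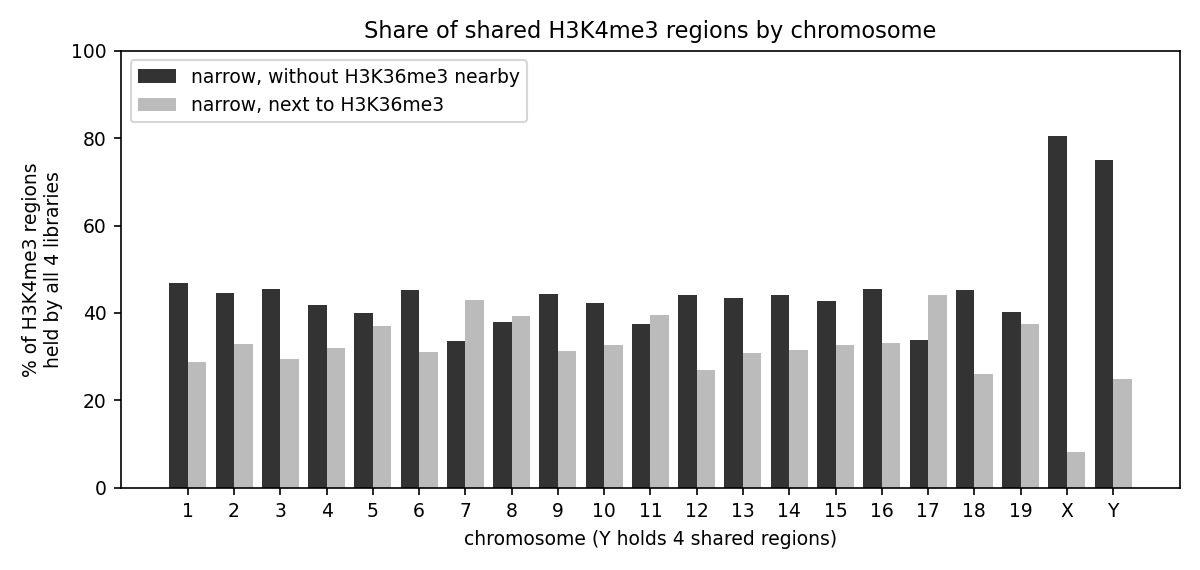
Share in percent of the H3K4me3 regions held by all 4 libraries that were narrow without H3K36me3 nearby (dark bars) or narrow and next to H3K36me3 (grey bars), by chromosome. X stands at 80.6% for the dark bar, above the 33.5% to 46.9% of the autosomes; Y holds only 4 shared regions.

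Few peaks of the other marks were called on X in any library. Between 0.358% and 0.973% of the covered length of an H3K36me3 list and 0.470% to 0.769% of that of an H3K27me3 list lay on X, against 2.86% to 2.99% for H3K4me3. X makes up about 6.31% of the genome as measured by the farthest peak end of each chromosome. Of the narrow X regions free of H3K27me3, 4.09%, 6.01% and 14.4% had H3K36me3 within 5 kb in old replicates 4, 5 and 6, and 9.86% and 25% in young replicates 5 and 6. On autosomes these shares were 31.0%, 43.0% and 47.5% in the old libraries and 42.2% and 57.0% in the young ones. In each of the 5 libraries the X share was the lower one. Likewise, 8.53% of all shared X regions were touched by H3K27me3, against 19.1% of autosomal ones. The part of the low number of peaks called on X in the makeup of the set was not tested.

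The X regions of the set were somewhat shorter than the autosomal ones. Their median covered length was 1398 and 1621.5 bp in old replicates 7 and 8 and 1613 and 1477.5 bp in young replicates 7 and 8, against 1545.5 and 1761 bp in the old and 1751 and 1602 bp in the young libraries on autosomes. The share at a score of 3100 or above was 54.8% and 55.8% in the old libraries and 48.9% and 51.1% in the young ones, against 63.3% to 64.6% on autosomes. The X regions lay apart from H3K27me3 as well: 6.08% to 12.4% had an island within 50 kb, against 30.6% to 48.9% of the autosomal regions of the set. In young replicate 1 these shares were 4.50% on X and 22.2% on autosomes.

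H3K27me3 islands near the regions were scarce at short range. By the rule none touched a region in the 5 libraries used. Within 5 kb, an island lay near 6.99%, 4.96% and 8.14% of the regions in old replicates 1, 2 and 3, and near 3.59% and 7.16% in young replicates 2 and 3. The old and young values overlapped, with a difference of means of 1.32 percentage points (exact two-sided permutation test, n = 3 and 2 libraries, p = 0.6, where 0.1 is the smallest possible). Titles of an old and a young library share the number 18 or 20, whose meaning is not given, and old minus young was 1.37 points within number 18 and 0.982 points within number 20. Without young replicate 2 the difference was -0.467 points, and with young replicate 1, which had 3.96%, it was 1.79 points. Against the narrow regions next to H3K36me3 the share within 5 kb differed by -0.293 ± 0.503 points (SD, n = 5 libraries; exact two-sided sign-flip permutation test, p = 0.3125, where 0.0625 is the smallest possible), which is within the spread between libraries. With young replicate 1 added it was 0.175 points, and on autosomes alone -0.00251 points.

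At longer range fewer of these regions than of those next to H3K36me3 had H3K27me3 around them. Within 50 kb, 42.2%, 30.5% and 46.7% of them had an island in old replicates 1, 2 and 3, and 29.1% and 43.9% in young replicates 2 and 3. For the regions next to H3K36me3 the shares were 49.7%, 40.5% and 54.0% in the old libraries and 39.9% and 53.3% in the young ones. The share was lower in each of the 5 libraries, with a difference of -8.99 ± 1.52 points (SD, n = 5 libraries; exact two-sided sign-flip permutation test, p = 0.0625, the smallest possible). On autosomes alone it was -7.26 ± 1.82 points (SD, n = 5 libraries). This distance was chosen after the 5 kb values were seen. Young replicate 1, which stood apart, went the other way, with 21.1% of the regions without H3K36me3 nearby and 14.0% of those next to it.

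No difference by age in the length of H3K4me3 was detectable over these regions as a whole. The library medians averaged 1641 ± 151 bp for old cells and 1666.5 ± 105 bp for young cells (SD, n = 2 each), a difference of -25.5 bp (exact two-sided permutation test, p = 1, where 0.333 is the smallest possible). The replicates of one age differed more than the ages did. The sign turned without old replicate 7 (81.5 bp) and without young replicate 7 (49 bp), and between the libraries with number 18 in their titles, old and young replicate 7, the difference was -207 bp. For single regions the longest cover was in old replicate 8 (41.3% of regions) or young replicate 7 (38.0%), and the shortest in old replicate 7 (46.6%) or young replicate 8 (31.0%), so each age held a long and a short library. Old replicate 7 also had the most regions broken into more than one peak, 6.00%, with 2.82% in old replicate 8, against 0.998% and 1.92% in young replicates 7 and 8. Over all 14489 shared regions the order was the same, with 7.72% and 4.33% in the old libraries and 2.06% and 3.50% in the young ones. Across the 6213 regions the lengths of any pair of libraries correlated at r = 0.890 to 0.919, given as a description over regions that share their libraries.

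Region by region, no member was called. A limma fit of log2(bp + 200) with Benjamini-Hochberg adjustment over 17307 regions called 0 of the 6213 at an adjusted p below 0.05, as it did over all regions tested (0%), and the lowest adjusted p was 0.348. At an unadjusted p below 0.05 in limma, 62 members (0.998%) were longer in old cells, where the background over all regions tested was 6.04%, and 69 (1.11%) were shorter, where it was 1.2%. The regions tested include those missing from 1 or 2 libraries. Over the 14489 regions held in all 4 libraries, as every member is, 1.70% were longer and 1.07% shorter in old cells. These counts moved with the setting. With each library centred, 274 of the 6213 members had an unadjusted p below 0.05 in limma, of which 158 were longer in old cells. Over all 17307 regions tested, again with those missing from 1 or 2 libraries, the centred fit had 1636, of which 1330 were longer. The centred counts over the 14489 regions held in all 4 libraries are not given here. The median log2 change of the members was -0.02 and the middle 90% lay between -0.33 and 0.27. Leaving out a library left a lone library standing for its age, and the direction turned with the library left out. The median log2 change of the members was 0.07 without old replicate 7 and -0.10 without old replicate 8. Over all regions tested in the same fits it was 0.10 and -0.08. Without young replicate 7 and without young replicate 8 it was 0.03 and -0.08 for the members, against 0.05 and -0.06 over all regions tested.

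In 675 members (10.9%) the old libraries each covered more bases than either young one, against a background of 12.6% of the regions held in all 4 libraries. In 1108 members (17.8%) they each covered fewer, against 16.2%. The narrow regions next to H3K36me3 had 10.9% and 16.4%, and the broad regions free of H3K27me3 had 26.7% and 7.03%. The regions touched by H3K27me3 had 16.1% and 14.6%. The shares of the members were thus near the background. Whether the sets differ was not tested.

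Among members whose ages did not overlap, the 5 with the largest positive log2 change were the only members that differed by more than 1 on the log2(bp + 200) scale. The region on chromosome 11 at 48889674 to 48893223 was covered over 3289 and 3383 bp in old replicates 7 and 8, and over 1213 and 556 bp in young replicates 7 and 8. Its log2 change was 1.77 (SE 0.31; limma, Benjamini-Hochberg adjusted p = 0.348). Cover in both old libraries was nearly the whole merged width of 3550 bp, whereas the young libraries differed from each other and held less than that.

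The region on chromosome 3 at 106591100 to 106593205 had 1831 and 2106 bp in old replicates 7 and 8, and 834 and 804 bp in young replicates 7 and 8, a log2 change of 1.09 (SE 0.17). On chromosome 18 at 60535007 to 60538537 the old libraries had 2654 and 3531 bp and the young ones 903 and 1358 bp. On chromosome 1 at 163325543 to 163328716 the old libraries had 1807 and 2728 bp and the young ones 831 and 1088 bp. The fifth, on chromosome 4 at 87449265 to 87452364, was covered over 2996 and 3082 bp in the old libraries and over 721 and 2254 bp in the young ones, so its young libraries lay far apart. All 5 had an H3K36me3 peak 4.69 to 26.3 kb away, and none reached a score of 3100 in more than 1 library.

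The 5 with the most negative log2 change were short, at 854 to 1552 bp of merged width. They were picked among members whose ages did not overlap, so both old libraries lie below both young ones by that choice. On chromosome 5 at 125945640 to 125946705, old replicates 7 and 8 had 357 and 413 bp, and young replicates 7 and 8 had 844 and 1062 bp, a log2 change of -0.97 (SE 0.31; limma, Benjamini-Hochberg adjusted p = 0.467). On X at 133510578 to 133511895 both old libraries had 439 bp, and the young ones 1248 and 874 bp. No library scored 3100 at any of the 5. The others were on chromosome 7 at 19457749 to 19458961 (old 428 and 569 bp, young 1183 and 1085 bp), on chromosome 2 at 34214999 to 34216550 (old 747 and 544 bp, young 1512 and 1171 bp) and on chromosome 14 at 76957985 to 76958838 (old 236 and 471 bp, young 849 and 729 bp).

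The members with the largest mean cover lay near the width limit in all 4 libraries. The region with the largest mean cover, on chromosome 16 at 8735707 to 8739702, had 3795 and 3809 bp in old replicates 7 and 8, and 3953 and 3996 bp in young replicates 7 and 8, a log2 change of -0.06. The next 4 by mean cover were on chromosome 3 (41366808 to 41370722), chromosome 2 (152221444 to 152225345, and 126498802 to 126502786) and chromosome 8 (81551527 to 81555371), and had log2 changes of -0.07 to 0.06. Each of the 5 scored 3100 or above in all 4 libraries and lay 5.78 to 18.8 kb from an H3K36me3 peak. Their length follows from the choice by mean cover. None had an H3K36me3 peak within 5 kb in any of the 5 libraries, which held for 69.9% of all members.

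By score the members gave no single direction with age. The median score percentile within a list was 48.8 and 52.3 in old replicates 7 and 8, and 41.1 and 40.3 in young replicates 7 and 8, a difference of 9.86 (exact two-sided permutation test, n = 2 each, p = 0.333, the smallest possible). These medians equal the share of each list's peaks that score below 3100, so they follow how many low peaks the list holds. The share of members at 3100 or above, which does not depend on the rest of the list, was -0.499 percentage points apart, old minus young (exact two-sided permutation test, p = 0.667, where 0.333 is the smallest possible). The 3 members with the highest mean score percentile were on chromosome 18 (12899341 to 12900712), chromosome 5 (31753971 to 31756146) and chromosome 2 (62501788 to 62503293). The first of them had 865 and 1372 bp in old replicates 7 and 8 and 956 and 998 bp in young replicates 7 and 8, and the old and young lengths overlapped at all 3.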

How the data were processed

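The data are peak lists of ChIP-seq from 16 libraries in mm9; per the submitters' processing notes CASAVA 1.4, MACS and SICER were used; no aligner or threshold is stated in the labels or headers. The deposited H3K4me3 and H3K36me3 lists give 1 peak score per interval, whose unit is not stated, and the deposited H3K27me3 islands give a score of another kind on a grid of 200 bp; both are the authors' values and serve here only for ranks within a list. Other deposited columns hold coordinates. Each library has a list of its own. Intervals were merged, and covered bp, nearest distances and score percentiles (the share of a list's peaks with a lower score) were computed with Python 3.11.15, numpy 2.4.6 and pandas 2.3.3. Lengths were compared by age with limma 3.58.1 in R 4.3.3 (trended empirical Bayes, log2 of bp plus a pseudocount of 200, regions covered in at least 2 libraries, Benjamini-Hochberg adjustment), a step tested on simulated data; log2 values are on that scale, which understates changes of short regions. Other values were tested by exact permutation over libraries.

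The regions named are those with the largest positive and negative log2 changes among members whose ages do not overlap (5 each), the largest mean cover (5), the widest and those just past the width limit (3 each), the farthest from H3K36me3 (5) and the highest mean score percentile (3). Members, lists and tests were chosen with earlier results of these data known. Alternatives covered the score threshold, the overlap, merging, width and window limits, the pseudocount, the filter, centring, a replicate block and leaving out each library; shares at a score of 3100, mean percentiles, the 50 kb window and values without X and Y were added after seeing the data. Gene names, motifs and sequences were not used here, since the other tables at hand are in a later build.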

Additional observations from a re-analysis of the deposited data

Results flagged for a closer look

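Young H3K27me3 replicate 1, which the rule leaves out, had islands that touched 45 of the 6213 narrow regions without H3K36me3 nearby (0.724%). The other 5 libraries by rule touch none. It touched 10 of the 4851 narrow regions next to H3K36me3 (0.206%), and the share touched over all shared regions is not given here. Within 5 kb it had an island near 3.96% of the 6213 regions, a lower share than the 4.79% of the 14489 regions held in all 4 lists. The 45 regions had a median H3K4me3 cover of 1653 and 2105 bp in old replicates 7 and 8, and 1979 and 1805 bp in young replicates 7 and 8. Young H3K36me3 replicate 4, also left out of the rule, had a peak within 5 kb of 64 of the 6213 regions (1.03%). The share was 3.34% of the 4851 regions next to H3K36me3 (162 regions) and 2.02% of the 14489 regions held in all 4 lists. Both are signals in libraries that the main comparisons did not use, and their source was not tested.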

How the results depend on the processing

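The read depth is unknown, peak scores pile up at 3100, and 2 libraries an age cannot give a p below 0.333. With H3K4me3 peaks at or above their list's median score, the length difference between regions without H3K36me3 nearby and next to it was 99.25 bp. Of the 3620 members chosen at that threshold, those with non-overlapping ages numbered 374 longer and 636 shorter in old. The same counts over all shared regions at that threshold are not given here. The score difference between the 2 sets was 0.0225 percentage points as a share at the highest score, -20.7 points as a share at 3100 or above and -3.79 as a mean percentile; old minus young at 3100 or above it was -0.499 points. The H3K27me3 difference between the sets within 5 kb was 0.144 points with an H3K36me3 window of 10 kb and 0.175 with young replicate 1 added. The causes of these changes were not tested.

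Leaving out each library in turn, the length difference by age ran between -132.5 and 81.5 bp (49 bp without young replicate 7, 81.5 bp without old replicate 7), and that between the sets between -161 and -151 bp. The score percentile ran between 8.10 and 11.6 by age and stayed at 0 between the sets. The H3K27me3 share within 5 kb ran between -0.467 (without young replicate 2) and 3.11 points by age and between -0.443 and -0.162 points between the sets. Calls by limma ran between 1 and 23. With a replicate block, limma called 0 members and 0 of all 17307 regions tested. The mean differences within equal replicate numbers were -25.5 bp in length, 9.86 in percentile and 1.17 points in H3K27me3. H3K4me3 replicate 8 has title number 19 in old and 21 in young cells, so these 2 libraries share no title number. The H3K4me3 deviations of replicate 7 from its age mean correlated between ages at r = -0.0224 over 14489 regions. Regions of the same libraries are not replicates, so this cannot decide whether equal numbers are paired. Between the libraries whose titles share the number 18, whose meaning is not given, the length difference was -207 bp.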
